A study of Mus musculus with 35 samples.

Results

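Loss of *Hdac2* from medium-spiny neurons (MSNs) was examined in striata with normal huntingtin, by comparing all 9 *Htt*+/+ *Hdac2* KO mice with all 8 *Htt*+/+ *Hdac2* WT mice. These 17 of the 35 libraries of the series, each from 1 mouse, were chosen by genotype label alone, and 17126 genes were tested. *Hdac2* KO mice carried 2 floxed *Hdac2* alleles and the D9-Cre transgene, in which a regulatory fragment of *Ppp1r1b* (DARPP-32) drives Cre in MSNs from early adulthood onwards. *Hdac2* WT mice carried the floxed allele without Cre, with 2 floxed alleles in most and 1 in 2 of them (replicates 1 and 2). All 17 mice had 2 wild-type *Htt* alleles and were 21.71 to 22.71 weeks old. The WT group had 5 males and 3 females, and the KO group 5 males and 4 females. No WT mouse carried Cre, so Cre and the deletion cannot be told apart here. Cells other than MSNs keep *Hdac2*, and in bulk striatal RNA fewer cells of a type and less RNA per cell cannot be told apart.

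HDAC2 is a class I histone deacetylase that removes acetyl groups from histone tails. It has no targeting domain of its own for DNA and works, together with its close relative HDAC1, as the catalytic subunit of the Sin3, NuRD and CoREST co-repressor complexes. In adult neurons it is known for limiting the expression of synaptic and plasticity genes. MSNs, the GABAergic projection neurons that make up most striatal neurons, integrate cortical glutamate with dopamine and acetylcholine, and fall into direct-pathway cells with D1 receptors and indirect-pathway cells with D2 receptors.

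The groups were sequenced to similar depth, with 50339179 to 59231902 counts per library. RNA of the WT mice was extracted on 24 May (2 libraries), 25 May (3) and 27 May (3), and that of the KO mice on 26 May (3), 27 May (1), 31 May (4) and 3 June (1), so extraction day nearly follows genotype. The share of counts from mitochondrial genes was 7.71% ± 1.32 (SD, n = 8) in WT and 8.58% ± 1.33 (SD, n = 9) in KO striata (exact two-sided permutation test, p = 0.199). This share also followed the letter that opens the mouse IDs, which that test does not take into account. In series V it was 6.14% to 7.81% in 5 WT and 7.01% to 7.16% in 3 KO libraries, in series A 8.22% and 8.26% in WT and 8.55% in the 1 KO library, and in series Z 10.4% in the 1 WT library and 8.71% to 11.1% in 5 KO libraries. The 1 KO library of 27 May is of series Z and the 3 WT libraries of that day are of series V. Comparisons within 27 May therefore hold day fixed but not series, and rest on 1 KO mouse. Defining markers of striatum were present: *Adora2a*, an adenosine receptor of indirect-pathway cells, stood at 361 to 495 CPM (counts normalised to the TMM-scaled library size), and *Penk*, their enkephalin precursor, at 1658 to 2069 CPM. *Slc17a7*, the vesicular glutamate transporter of cortical neurons, ranged from 7.90 to 48.5 CPM in WT and from 2.86 to 132 CPM in KO striata, with KO replicates 2 and 6 far above the other KO libraries.

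With *Hdac2* KO, 3056 genes (17.8% of those tested) passed an adjusted p of 0.05 (quasi-likelihood test of edgeR, Benjamini-Hochberg over all tested genes). Up-regulated genes numbered 1551 (9.06%) and down-regulated genes 1505 (8.79%). Most changes were small. The median absolute log2 fold change of these genes was 0.24, and 1620 of them changed by less than 0.25. Among the 179 genes that changed by at least 1 on the log2 scale, 136 rose and 43 fell. In 401 genes every KO library lay above every WT library (2.34% of genes tested) and in 409 every KO library lay below (2.39%). With extraction day in the fit in place of surrogate variables, which are covariates estimated from the counts themselves, 822 genes passed, 494 of them up-regulated. Of these 822, 661 were also among the 3056, with the same direction. Counts of genes that pass with extraction day in the fit are therefore given beside the gene lists. Over all 35 libraries, KO and WT shared an extraction day only on 27 May (*Htt*+/+ KO replicate 9) and 25 May (*Htt*Q111/+ KO replicate 1). The fit with extraction day therefore tells day from genotype through these single KO libraries. Values of that fit and values within 27 May share KO replicate 9, so they are not separate evidence. The share of all genes, 9.06% for rises and 8.79% for falls, is given as the background of each list. Falls made up 27.5% of genes at an average log2 CPM of 7 or above and 3.86% of genes at 1 to 3. The lists were not matched for abundance, so none was compared with genes of like abundance.

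The largest rises, among named genes with an average log2 CPM of 1 or more, began with genes of few reads in WT striata. *Frem3*, a basement membrane protein related to FRAS1, had 0.156 to 0.503 CPM in WT (median 0.308) and 2.65 to 5.37 CPM in KO libraries (median 3.65). Its log2 fold change was 3.66 (SE 0.31, adjusted p = 7.02e-10), and the groups did not overlap. *Wdr86*, which encodes a WD-repeat protein, had 0.364 to 0.726 CPM in WT (median 0.514) and 3.53 to 6.71 in KO (median 5.04), with a log2 fold change of 2.95 (SE 0.22, adjusted p = 7.03e-11). *Chrnb4*, a nicotinic acetylcholine receptor subunit abundant in habenula and autonomic ganglia, rose from 0.474 to 1.17 CPM in WT (median 0.837) to between 2.67 and 6.51 CPM in KO (median 3.79), a log2 fold change of 2.39 (SE 0.26, adjusted p = 4.89e-08). All 9 KO libraries exceeded all 8 WT libraries for each of these 3 genes. *Stag3*, a cohesin subunit otherwise known from meiosis, had 0.633 to 1.10 CPM in WT (median 0.778) and 2.22 to 5.39 in KO (median 3.39), again without overlap (log2 fold change 1.89, SE 0.15, adjusted p = 2.43e-10).

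The other genes among the 12 largest rises are known from varied tissues. *Tnnt1*, the slow skeletal troponin T, had a log2 fold change of 1.63 (SE 0.20). *Crb1*, a cell polarity protein of the retina, rose by 1.58 (SE 0.23), *Nlrp10*, an NLR-family protein, by 1.69 (SE 0.14), and *Tcfl5*, a testis transcription factor, by 1.75 (SE 0.22). *Vwa5b2* rose by 1.41 (SE 0.12). *H2-Q2*, an MHC class I gene, rose from a median of 1.55 to 10.5 CPM (log2 fold change 2.59, SE 0.19), although reads of near-identical class I genes can be divided between them. *Vill*, a villin-like gene, spread widely among KO mice, with 2.22 and 2.31 CPM in KO replicates 3 and 4 and 6.54 to 12.3 CPM in the other 7, against 0.430 to 3.75 CPM in WT (log2 fold change 1.87, SE 0.27). *Pnmt* is described with its chromosomal neighbourhood. Of the 12 largest rises, 11 did not overlap between groups (2.34% of all genes), and all 12 passed under every alternative analysis and with each library left out. They were chosen by size of change in these same libraries, so these counts are no independent evidence.

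The largest falls, chosen at the same average level, were smaller than the largest rises apart from that of *Ttr*. *Clec12a*, an inhibitory C-type lectin of myeloid cells, had 5.51 to 10.4 CPM in WT (median 9.06) and 2.10 to 3.48 in KO libraries (median 2.61). Its log2 fold change was −1.88 (SE 0.14, adjusted p = 5.85e-11), without overlap. *Serpinb1b*, a serine protease inhibitor, had 3.89 to 7.53 CPM in WT (median 4.77) and 1.23 to 1.95 CPM in KO (median 1.54), a log2 fold change of −1.81 (SE 0.15, adjusted p = 2.43e-10). *Ptpn7*, a MAP kinase phosphatase best known from lymphocytes, fell by 1.60 (SE 0.14) from a median of 15.7 to 5.80 CPM. *Myh7b*, a sarcomeric-type myosin heavy chain also transcribed in brain, had 5.22 to 7.68 CPM in WT (median 7.24) and 2.60 to 4.44 CPM in KO (median 2.97), a log2 fold change of −1.37 (SE 0.15, adjusted p = 5.20e-08). Each of these 4 genes had every KO library below every WT library.

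Smaller falls were seen in *Ackr2*, a chemokine scavenging receptor (−1.19, SE 0.13), *Tspear* (−1.09, SE 0.19) and *Stc1*, the hormone stanniocalcin 1 (−1.07, SE 0.11), all without overlap. Groups overlapped for *Ptprv* (−1.44, SE 0.09), *Cd72*, a B-cell co-receptor (−1.69, SE 0.24), *Wnk4*, a kinase that regulates ion transport (−1.16, SE 0.09), and *Mas1*, the angiotensin-(1-7) receptor (−1.03, SE 0.20). *Ttr*, transthyretin of the choroid plexus, had the most negative log2 fold change (−3.12, SE 1.05, adjusted p = 0.0359), but its counts depend on single libraries. WT libraries ran from 0.234 to 171 CPM and KO libraries from 0.758 to 14.7 CPM. *Ttr* passed in 10 of 18 alternatives, with a log2 fold change of 0.22 with extraction day in the fit, −2.80 without KO replicate 1 (adjusted p = 0.0820), −2.97 without KO replicate 2 (0.0520) and −3.15 without WT replicate 8 (0.0501). Of the 12 largest falls, chosen in the same way, 7 did not overlap between groups (2.39% of all genes) and 8 passed under every alternative.

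**Figure D1:**
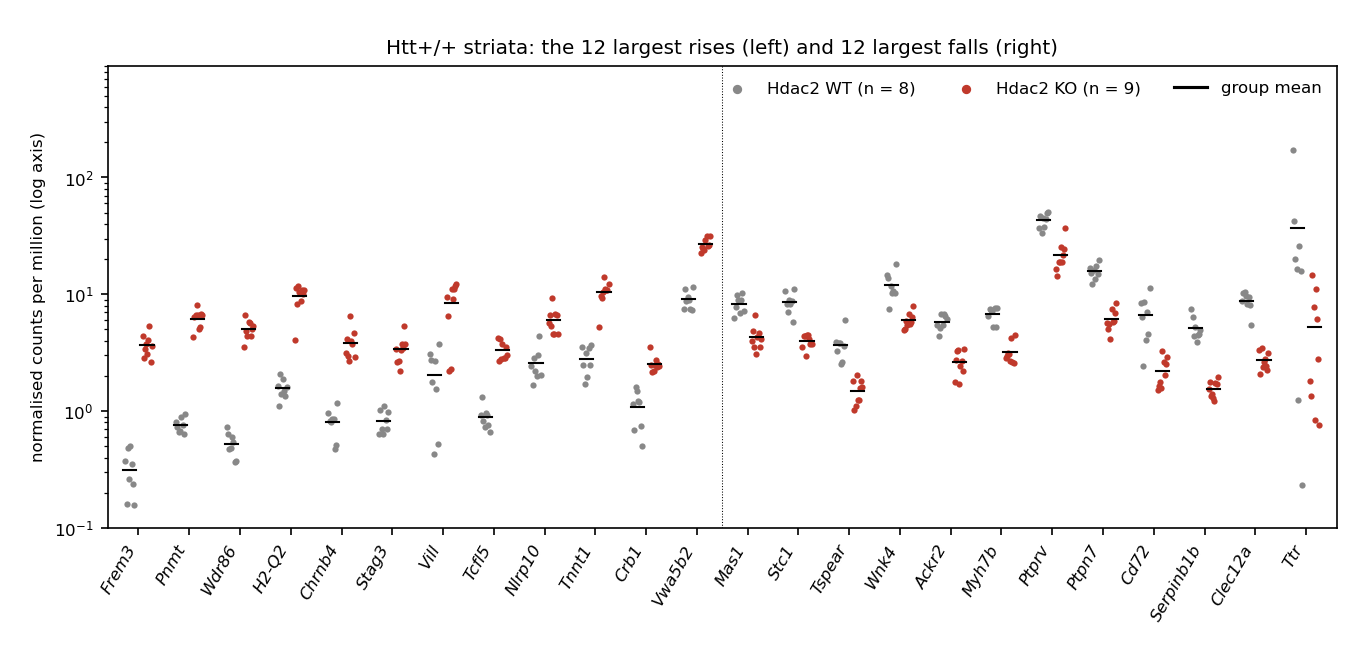
Library-size normalised counts (CPM, log axis) of the largest rises and falls, with 1 point per mouse for *Htt*+/+ *Hdac2* WT (n = 8) and *Hdac2* KO (n = 9) and a bar at each group mean. *Frem3* points lie at 0.156 to 0.503 CPM in WT and 2.65 to 5.37 in KO, whereas the *Ttr* points of both groups overlap.

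Promoters of leading genes are printed to show the DNA at which transcription of these genes starts. Each covers 250 bases before to 50 bases after the RefSeq transcript start, on GRCm38.p6, 5′ to 3′ on the gene's own strand, with CpG dinucleotides in capitals. *Frem3* (chr8:80610789-80611088, plus strand), *Wdr86* (chr5:24730631-24730930, minus strand), *Chrnb4* (chr9:55048495-55048794, minus strand) and *Stag3* (chr5:138280259-138280558, plus strand) rose, and *Myh7b* (chr2:155610993-155611292, plus strand) and *Serpinb1b* (chr13:33083853-33084152, plus strand) fell.
Frem3: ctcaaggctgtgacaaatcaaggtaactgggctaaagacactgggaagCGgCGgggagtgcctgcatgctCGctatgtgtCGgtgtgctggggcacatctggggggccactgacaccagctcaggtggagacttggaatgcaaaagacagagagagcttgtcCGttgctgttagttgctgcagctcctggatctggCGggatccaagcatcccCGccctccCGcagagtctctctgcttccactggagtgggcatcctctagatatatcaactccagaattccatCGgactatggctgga
Wdr86: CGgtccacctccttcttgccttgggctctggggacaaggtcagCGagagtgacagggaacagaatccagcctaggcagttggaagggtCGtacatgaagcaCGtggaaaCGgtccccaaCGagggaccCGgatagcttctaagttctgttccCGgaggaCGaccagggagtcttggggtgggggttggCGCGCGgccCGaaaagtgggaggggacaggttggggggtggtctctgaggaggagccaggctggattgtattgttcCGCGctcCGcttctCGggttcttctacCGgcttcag
Chrnb4: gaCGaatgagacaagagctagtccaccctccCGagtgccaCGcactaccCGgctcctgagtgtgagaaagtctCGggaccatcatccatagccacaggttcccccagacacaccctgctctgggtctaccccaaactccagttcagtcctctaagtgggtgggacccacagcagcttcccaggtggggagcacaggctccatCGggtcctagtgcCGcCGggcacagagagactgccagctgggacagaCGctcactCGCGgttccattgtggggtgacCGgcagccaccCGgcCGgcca
Stag3: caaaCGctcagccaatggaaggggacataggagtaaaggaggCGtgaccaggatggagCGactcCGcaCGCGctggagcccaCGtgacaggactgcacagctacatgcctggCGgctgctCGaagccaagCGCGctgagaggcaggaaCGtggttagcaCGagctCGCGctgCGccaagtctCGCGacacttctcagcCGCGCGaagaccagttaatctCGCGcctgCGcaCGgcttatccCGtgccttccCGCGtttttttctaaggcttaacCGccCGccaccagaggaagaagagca
Myh7b: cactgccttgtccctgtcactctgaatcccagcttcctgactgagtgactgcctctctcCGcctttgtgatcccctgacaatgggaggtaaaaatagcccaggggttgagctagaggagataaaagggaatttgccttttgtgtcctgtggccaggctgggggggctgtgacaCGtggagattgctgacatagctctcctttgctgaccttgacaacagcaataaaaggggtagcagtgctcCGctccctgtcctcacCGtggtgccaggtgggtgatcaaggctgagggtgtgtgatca
Serpinb1b: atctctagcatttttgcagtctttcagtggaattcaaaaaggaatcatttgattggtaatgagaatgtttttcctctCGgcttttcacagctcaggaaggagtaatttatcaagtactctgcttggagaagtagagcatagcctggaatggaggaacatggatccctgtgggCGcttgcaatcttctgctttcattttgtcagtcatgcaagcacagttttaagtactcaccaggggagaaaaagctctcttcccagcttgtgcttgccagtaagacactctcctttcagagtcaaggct
CpG content differed widely among them. *Frem3* held 9 CpG, *Wdr86* 18, *Chrnb4* 14 and *Stag3* 30, *Myh7b* held 4 and *Serpinb1b* 2, against a median of 20 over the 11467 tested genes with a RefSeq promoter (10th percentile 5, 90th percentile 37). Only 67.0% of tested genes had one, so promoters were not compared between up-regulated and down-regulated genes.

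Among abundantly transcribed genes (average log2 CPM of 6 or more) the largest rises were in *Rreb1*, a zinc finger transcription factor, and *Miat*, a long non-coding RNA of neurons. *Rreb1* had 40.1 to 58.6 CPM in WT (median 49.7) and 92.5 to 170 CPM in KO (median 132), a log2 fold change of 1.28 (SE 0.10, adjusted p = 2.95e-10). *Miat* had 44.0 to 63.1 CPM in WT (median 54.2) and 90.02 to 151 CPM in KO (median 124), with a log2 fold change of 1.11 (SE 0.10), though other annotated transcripts overlap its interval. Every KO library was above every WT library for both. They were followed by *Lypd1*, a prototoxin that binds nicotinic receptors (0.77, SE 0.08), *Tsnax*, translin-associated factor X (0.75, SE 0.06), *Onecut2*, a homeodomain factor (0.68, SE 0.09), and *Hap1*, the huntingtin-associated protein 1 (0.65, SE 0.09). *Hap1* rose from a median of 88.3 to 143 CPM without overlap. All 6 passed under every alternative.

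Down-regulated counterparts were *Syt2*, a fast calcium sensor of transmitter release (−0.66, SE 0.09), *Nexn*, an actin-binding protein (−0.63, SE 0.06), *Me3*, mitochondrial malic enzyme (−0.56, SE 0.05), *Gsg1l*, an AMPA receptor auxiliary subunit (−0.54, SE 0.06), *Cd4* (−0.53, SE 0.07) and *Sh2d5* (−0.52, SE 0.06). *Me3* had 74.6 to 97.1 CPM in WT (median 81.7) and 53.4 to 61.1 CPM in KO (median 55.8). KO and WT libraries overlapped for *Syt2* and *Sh2d5* and not for the other 4. The calls of *Syt2*, *Cd4* and *Sh2d5* were lost with extraction day in the fit.

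Direction of change differed with transcript abundance, measured as average CPM over the gene without correction for its length. Of 1658 genes at an average log2 CPM of 7 or above, 27.5% fell and 6.45% rose. At 5 to 7, 13.1% fell and 9.61% rose, and from 3 to 5 the order turned, with 6.19% falling and 11.8% rising. Among genes at 1 to 3, 3.86% fell and 10.1% rose. The median average log2 CPM was 4.21 for up-regulated and 6.12 for down-regulated genes, against 4.08 for all genes tested. With extraction day in the fit the shares were 6.09% falling and 1.39% rising at 7 or above, and 0.701% and 3.96% at 1 to 3. Under both other scalings, in males alone and in females alone, falls likewise exceeded rises at 7 or above and rises exceeded falls at 1 to 3.

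**Figure D2:**
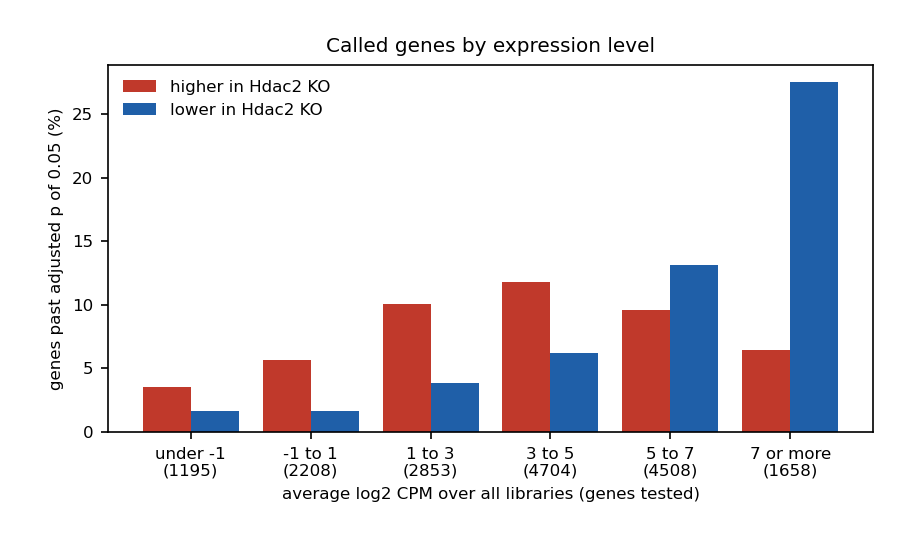
Share of tested genes (%) that were up-regulated or down-regulated with *Hdac2* KO, by average log2 CPM of the gene. Down-regulated genes make up 27.5% of the most abundant class and 3.86% of genes at 1 to 3.

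Other histone deacetylases were examined first among gene groups. *Hdac2* itself differed little over the whole gene (log2 fold change −0.09, SE 0.03, adjusted p = 0.0552), where counts do not resolve the deleted exons. *Hdac1* had 5.33 to 6.82 CPM in WT (median 5.90) and 8.36 to 9.82 in KO libraries (median 8.78), a log2 fold change of 0.54 (SE 0.07, adjusted p = 7.35e-07) without overlap. *Hdac6*, a cytoplasmic deacetylase, rose by 0.18 (SE 0.05), and *Hdac11*, the class IV enzyme, fell by 0.15 (SE 0.04). Neither passed with extraction day in the fit. Among the other entries tested (12 in all, 2 of them named *Hdac4*), *Hdac7* (0.11, SE 0.07) and *Hdac8* (−0.07, SE 0.07) did not pass, nor did the rest.

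Subunits of the complexes that contain HDAC1 and HDAC2 changed in both directions. Of 37 tested, 8 rose and 4 fell (32.4%, against 17.8% of all genes), with a median log2 fold change of 0.04 against −0.00135 for all genes. *Chd3*, a remodelling ATPase of NuRD, had 504 to 574 CPM in WT (median 546) and 642 to 839 CPM in KO (median 805), a log2 fold change of 0.54 (SE 0.06, adjusted p = 7.29e-08). *Mta3*, the NuRD adaptor, rose by 0.38 (SE 0.06) from a median of 25.0 to 33.0 CPM. *Brms1*, a Sin3 subunit, fell by 0.45 (SE 0.06) from 28.8 to 22.2 CPM. None of these 3 overlapped between groups. In the fit with extraction day 4 subunits rose and 0 fell, and 2 fell without KO replicate 7 or WT replicate 2. Among 23 Polycomb subunits, 3 rose and 3 fell (13% each), led by *Cbx7*, which binds trimethylated H3K27 (−0.24, SE 0.04). Leaving out WT replicate 2 gave 1 fall, and with extraction day in the fit 3 fell and 0 rose. Of 13 histone acetyltransferases, 1 fell and 0 rose, and neither direction had a call with extraction day.

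Markers of MSNs as a class fell more often than they rose. Of 22 tested, 8 fell (36.4%, against 8.79% of all genes) and *Ppp1r1b* alone rose, with a median log2 fold change of −0.09. *Ptpn5* (STEP), the striatal-enriched tyrosine phosphatase, had 784 to 1162 CPM in WT (median 927) and 599 to 874 CPM in KO (median 743), a log2 fold change of −0.41 (SE 0.06, adjusted p = 1.89e-05). *Scn4b*, the sodium channel beta 4 subunit, fell by 0.39 (SE 0.11), and *Rarb*, a retinoic acid receptor, by 0.30 (SE 0.06). Groups overlapped for *Ptpn5* and not for *Scn4b* or *Rarb*. *Gad1*, the enzyme of GABA synthesis, did not pass (log2 fold change −0.03, SE 0.03, adjusted p = 0.618). With extraction day in the fit 1 marker fell, at a list median of −0.12. In the KO library of 27 May (series Z) 6 of 22 markers were above the mean of the 3 WT libraries of that day (series V).

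Direct and indirect pathway markers did not move as blocks. Of 11 direct-pathway genes 2 rose, including *Tac1*, the substance P precursor (0.27, SE 0.05), and 0 fell. *Drd1a*, the D1 dopamine receptor, had a log2 fold change of −0.03 (SE 0.05, adjusted p = 0.725). Of 8 indirect-pathway genes 1 fell. *Adora2a*, the adenosine receptor (−0.13, SE 0.09), and *Penk* (−0.16, SE 0.11) did not pass. The fit with extraction day called 0 genes of either list.

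Markers of other cells were largely without calls. None of 18 oligodendrocyte, 18 microglia or 19 endothelial and mural markers passed, 1 of 15 astrocyte markers fell, and 2 of 17 interneuron markers fell. Astrocyte and interneuron lists had 0 calls in the fit with extraction day, where 1 oligodendrocyte, 1 microglia and 2 endothelial and mural markers rose. With surrogate variables estimated in the 17 *Htt*+/+ libraries, 8 of 18 oligodendrocyte and 8 of 18 microglia markers rose. *Mbp*, myelin basic protein, had a log2 fold change of 0.10 (SE 0.08), *Cx3cr1*, the fractalkine receptor of microglia, −0.02 (SE 0.05), *Gfap* of astrocytes −0.32 (SE 0.14) and *Chat* of cholinergic interneurons −0.09 (SE 0.06). Summed CPM of the microglia list was 811 to 1020 in WT and 937 to 1130 in KO libraries, and that of the endothelial list 522 to 684 and 569 to 768. Glial and vascular values depended on the covariates. The endothelial median was −0.07, but 0.34 with extraction day in the fit. It was 0.53 within 27 May, where all 19 genes were higher in the KO library (series Z, against series V in WT). In the same order, the microglia medians were −0.02, 0.20 and 0.40, and the oligodendrocyte medians 0.07, 0.16 and 0.06. Their part in other changes was not tested.

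**Figure D3:**
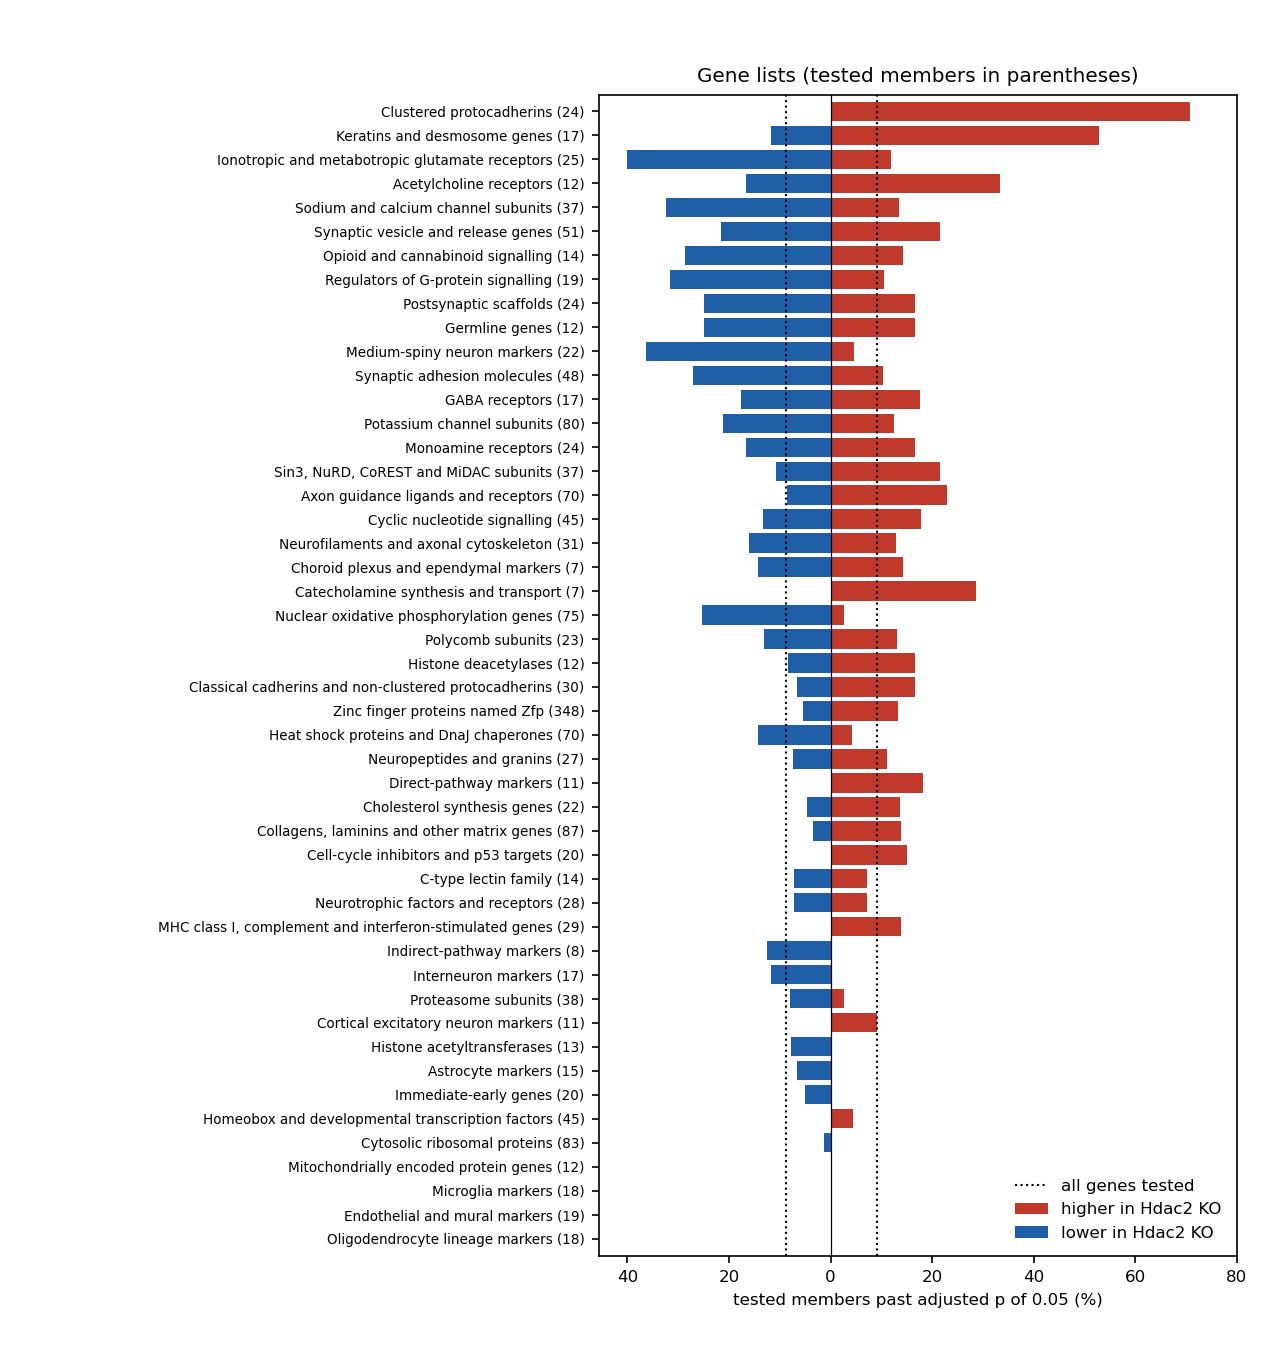
Share of tested members (%) up-regulated (right) and down-regulated (left) with *Hdac2* KO in each gene group, beside the shares over all 17126 genes (9.06% and 8.79%). The groups were not matched for transcript abundance. Clustered protocadherins (70.8% up) and keratin and desmosome genes (52.9% up) stand highest among rises, and glutamate receptors (40.0% down) among falls.

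Glutamate receptor genes fell more often than they rose. Of 25 tested, 10 fell (40.0%, against 8.79% of all genes) and 3 rose, with a median log2 fold change of −0.08. The falls covered AMPA, NMDA and metabotropic subunits. *Gria3* had 265 to 306 CPM in WT (median 285) and 237 to 258 CPM in KO (median 251), a log2 fold change of −0.21 (SE 0.03, adjusted p = 3.64e-05) without overlap. *Gria1* fell by 0.18 (SE 0.03), whereas *Gria2*, which sets the calcium permeability of AMPA receptors, did not pass (0.05, SE 0.04). *Grin1*, the obligatory NMDA receptor subunit, fell by 0.25 (SE 0.04), and *Grin2b* did not pass (−0.13, SE 0.05, adjusted p = 0.0769). *Grm5*, a metabotropic receptor coupled to phospholipase C, fell by 0.32 (SE 0.08). The 3 rises were led by *Grm8* (0.52, SE 0.13) and *Grin2d* (0.33, SE 0.08). Without WT replicate 2 *Grm8* did not pass (0.40, adjusted p = 0.114). Without that library 1 of the list rose. With extraction day in the fit 0 fell and 1 rose, and the median stood at −0.10.

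Single GABA-A receptor subunits changed in opposite directions. *Gabra3* had 36.3 to 44.8 CPM in WT (median 40.9) and 57.1 to 80.3 CPM in KO (median 64.1), a log2 fold change of 0.66 (SE 0.06, adjusted p = 7.35e-10). *Gabra5*, which builds extrasynaptic receptors, rose by 0.68 (SE 0.07) from a median of 18.9 to 30.5 CPM. *Gabrd*, the delta subunit of tonic, extrasynaptic receptors, had 143 to 158 CPM in WT (median 151) and 108 to 129 CPM in KO (median 113), a log2 fold change of −0.46 (SE 0.06, adjusted p = 1.72e-06). None of these 3 subunits overlapped between groups, and all 3 passed under every alternative. Of 17 GABA receptor genes tested, 2 of them for GABA-B receptors, 3 rose and 3 fell (17.6% each). Leaving out WT replicate 2 gave 1 fall, and with extraction day in the fit 2 rose and 1 fell.

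A chromosomal neighbour of *Chrnb4* also rose. On chromosome 9, *Chrna5* (54980880 to 55007779), *Chrna3* (55011343 to 55026559) and *Chrnb4* (55028156 to 55048544) lie side by side. *Chrna5*, an accessory subunit, had 0.213 to 0.522 CPM in WT (median 0.328) and 0.663 to 1.20 CPM in KO (median 0.998), a log2 fold change of 1.84 (SE 0.28, adjusted p = 1.18e-05) without overlap. *Chrna3* had a log2 fold change of 0.47 (SE 0.23) that did not pass (adjusted p = 0.187). *Chrna5* and *Chrna3* were named after their values were seen. Elsewhere, *Chrnb2*, the main beta subunit of brain, rose by 0.27 (SE 0.03) and *Chrna7*, which forms homomeric receptors, fell by 0.53 (SE 0.10), both without overlap. In all, 4 of 12 acetylcholine receptor genes rose (33.3%) and 2 fell, and 3 rose and 1 fell with extraction day in the fit. That fall was not *Chrna7* but *Chrm1*, a muscarinic receptor gene (−0.14 in the main fit, adjusted p = 0.0454). *Chrm1* passed in 12 of 18 alternatives and in 7 of the 17 fits with 1 library left out.

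**Figure D4:**
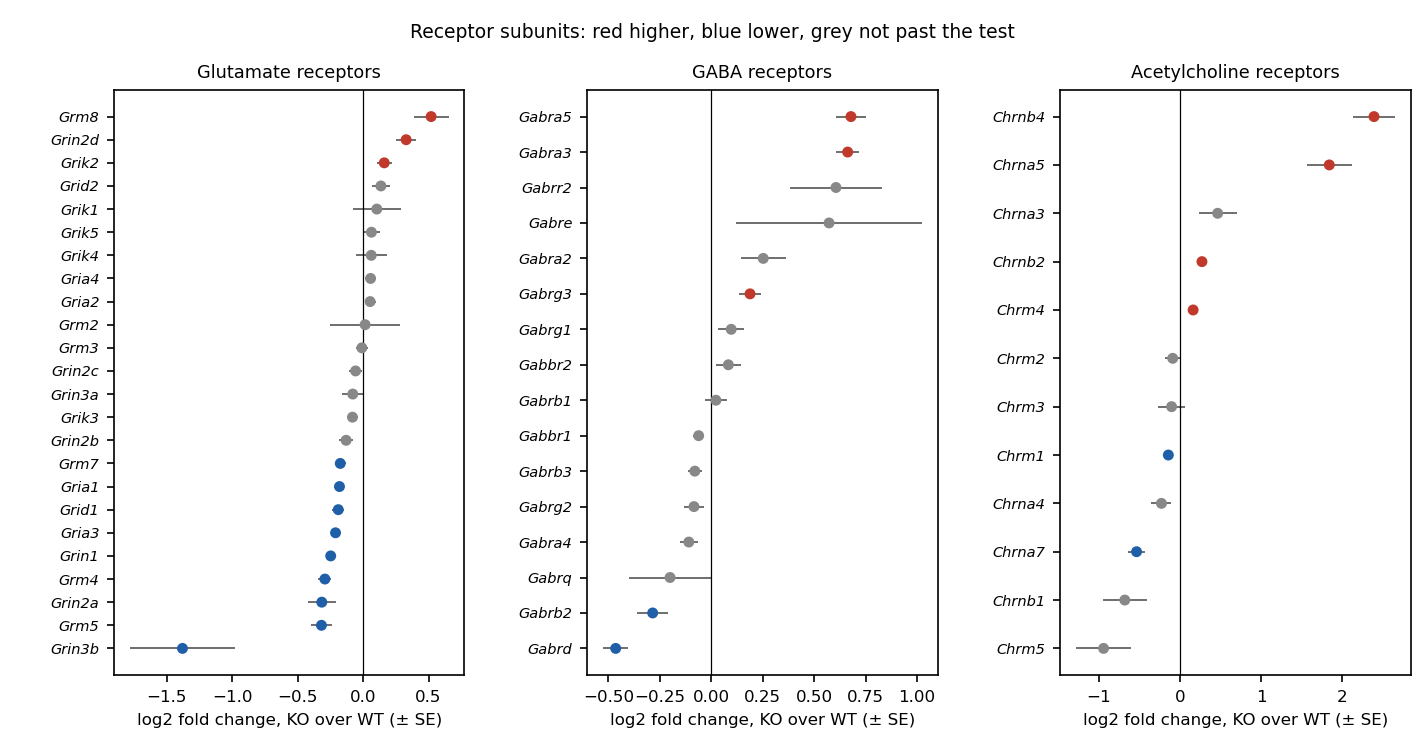
Log2 fold change (*Hdac2* KO against WT) of tested glutamate, GABA and acetylcholine receptor genes, with bars of 1 SE. Red points are up-regulated, blue points down-regulated and grey points not past the threshold. Glutamate receptor calls are mostly negative, and *Chrnb4* (2.39) and *Chrna5* (1.84) are the highest points.

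Monoamine, opioid and cannabinoid signalling genes moved in both directions. *Adra2c*, the alpha 2C adrenoceptor enriched in striatum, fell by 0.46 (SE 0.06) from a median of 45.1 to 36.5 CPM without overlap, and *Htr2c*, the serotonin 2C receptor, fell by 0.31 (SE 0.07). Of 24 monoamine receptors 4 rose and 4 fell (16.7% each, against 9.06% and 8.79% of all genes), and 1 rose and 1 fell with extraction day in the fit. Without WT replicate 2, 1 rose and 2 fell, and 2 also fell without KO replicates 1, 7 or 8 or WT replicates 6 or 8. *Oprl1*, the nociceptin receptor, had 8.65 to 10.7 CPM in WT (median 9.37) and 11.6 to 18.3 CPM in KO (median 14.5), a log2 fold change of 0.58 (SE 0.07). *Faah*, which degrades anandamide, rose by 0.56 (SE 0.08), and *Dagla*, which makes the endocannabinoid 2-arachidonoylglycerol, fell by 0.43 (SE 0.04). These 3 genes did not overlap between groups, but *Faah* did not pass with extraction day in the fit or in females alone. Of 14 opioid and cannabinoid signalling genes 2 rose (14.3%) and 4 fell (28.6%), and 1 rose and 1 fell with extraction day in the fit. Regulators of G-protein signalling also split, with 6 of 19 lower (31.6%) and 2 higher, against 1 in each direction with extraction day in the fit. *Rgs14* had 77.5 to 100 CPM in WT (median 89.8) and 45.5 to 57.0 CPM in KO (median 50.7), a log2 fold change of −0.84 (SE 0.10, adjusted p = 1.31e-07), and *Rgs19* rose by 0.86 (SE 0.09) from a median of 8.72 to 16.98 CPM. Of 45 cyclic nucleotide signalling genes 8 rose (17.8%) and 6 fell (13.3%), among them the cGMP phosphodiesterase gene *Pde9a* (0.47, SE 0.08) and *Adcy1* (−0.33, SE 0.07). The fit with extraction day called 2 rises and 0 falls. *Adcy1* overlapped between groups (139 to 181 CPM in WT, 101 to 172 CPM in KO) and passed in 11 of 18 alternatives.

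Ion channel genes fell more often than they rose. Of 37 sodium and calcium channel subunits, 12 fell (32.4%, against 8.79% of all genes) and 5 rose, with a median of −0.09. Rises numbered 2 without KO replicate 8 or WT replicate 7 and 3 without WT replicates 2, 8 or 9. *Scn2a1*, a main sodium channel of striatal neurons, had 396 to 488 CPM in WT (median 464) and 314 to 373 CPM in KO (median 343), a log2 fold change of −0.28 (SE 0.03, adjusted p = 6.45e-07). Of 80 potassium channel subunits, 17 fell (21.2%) and 10 rose. *Kcnq3*, which carries the M-current, had 377 to 489 CPM in WT (median 431) and 279 to 324 CPM in KO (median 297), a log2 fold change of −0.51 (SE 0.05, adjusted p = 4.85e-09). The sodium-activated channels *Kcnt1* (−0.39, SE 0.04) and *Kcnt2* (0.68, SE 0.08) changed in opposite directions, and *Kcnj3* (GIRK1) rose by 0.65 (SE 0.06). In the fit with extraction day, 1 sodium or calcium channel gene fell and 1 rose, and 5 potassium channel genes fell and 4 rose.

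Of 51 presynaptic genes, 11 were up-regulated and 11 down-regulated (21.6% each, against 9.06% and 8.79% of all genes). Falls numbered 4 without WT replicate 2 and 7 without KO replicate 1. *Syp*, the vesicle protein synaptophysin, had 450 to 522 CPM in WT (median 488) and 616 to 788 CPM in KO (median 667), a log2 fold change of 0.53 (SE 0.04, adjusted p = 8.60e-12) without overlap. *Rab3b* rose by 0.61 (SE 0.08), and *Syt6* fell by 0.40 (SE 0.05). Of 24 postsynaptic scaffold genes 4 rose (16.7%) and 6 fell (25.0%), and 2 rose without KO replicate 1, WT replicate 2 or WT replicate 7. *Homer2* (0.44, SE 0.06) and *Begain* (0.41, SE 0.05) were higher, whereas *Camk2b*, the beta subunit of calcium/calmodulin kinase II, fell by 0.35 (SE 0.05) from a median of 1415 to 1146 CPM and *Camk2a* by 0.26 (SE 0.06). Neuropeptide genes rose in 3 (11.1%) and fell in 2 (7.41%) of 27, including *Chgb*, a granin of secretory granules (−0.38, SE 0.05). When extraction day was in the fit, 2 presynaptic genes rose and 3 fell, 2 postsynaptic genes rose and 1 fell, and 1 neuropeptide gene rose and 1 fell.

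Cell-surface genes included a family in which most members rose. Of the 22 tested *Pcdhb* genes, the beta cluster of protocadherins whose combinations give neurons cell-surface identities, 17 rose (77.3%, against 9.06% of all genes) and 0 fell, with a median log2 fold change of 0.44. *Pcdhb16* had 12.6 to 17.7 CPM in WT (median 16.4) and 18.1 to 25.7 CPM in KO (median 20.9), a log2 fold change of 0.58 (SE 0.08, adjusted p = 5.62e-06) without overlap. The 17 rises ranged from 0.26 in *Pcdhb22* to 0.95 in *Pcdhb1*. The number of clustered protocadherins that rose was 12 to 18 with 1 library left out. It was 2 to 17 over the other alternatives, among them 7 with extraction day in the fit. Over the 24 tested, the median was 0.42, 0.34 with extraction day and 0.29 without surrogate variables. Within 27 May it was 0.13, and 17 of the 24 were higher in the KO library. These genes are similar in sequence and neighbours on chromosome 18, so they are not independent of each other, and reads that align to several of them were not counted.

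Desmosomal and keratin genes rose more often than they fell. Of 17 tested, 9 rose (52.9%) and 2 fell, with a median of 0.47, and 101 of 118 genes in the table were too low to test. *Dsg2*, a desmosomal cadherin, had 0.449 to 3.33 CPM in WT (median 1.69) and 2.15 to 4.73 CPM in KO (median 3.48), a log2 fold change of 1.33 (SE 0.17), and *Dsp* (desmoplakin) rose by 1.19 (SE 0.26). Groups overlapped for both, both lie low, and both calls were lost with extraction day in the fit, where 1 gene of the group rose. The annotated transcript *Gm16090* overlaps both *Dsg2* and *Ttr*.

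Axon guidance genes rose in 16 of 70 (22.9%, against 9.06% of all genes) and fell in 6. *Epha10*, an Eph receptor without kinase activity, had 13.2 to 21.8 CPM in WT (median 15.8) and 27.4 to 37.7 CPM in KO (median 33.4), a log2 fold change of 0.94 (SE 0.09, adjusted p = 4.55e-09). Of the 20 tested genes whose names begin with *Sema*, the semaphorin ligands, 6 rose and 2 fell. *Ephb2* rose by 0.50 (SE 0.11), and the netrin receptor gene *Unc5a* fell by 0.45 (SE 0.05). Guidance genes past the threshold with extraction day in the fit numbered 4 rises and 2 falls. Of 48 synaptic adhesion genes 13 fell (27.1%, against 8.79% of all genes) and 5 rose, or 3 without WT replicate 2. In the fit with extraction day 2 fell and 0 rose. *Cntnap1*, the paranodal contactin-associated protein, had 357 to 455 CPM in WT (median 391.7) and 259 to 335 CPM in KO (median 301), a log2 fold change of −0.43 (SE 0.05), and *Slitrk1* rose by 0.49 (SE 0.06). Of 30 classical cadherins and non-clustered protocadherins 5 rose (16.7%) and 2 fell (6.67%), and 1 rose and 2 fell with extraction day in the fit. Among classical cadherins *Cdh22* rose (0.53, SE 0.07) and *Cdh7* fell (−0.65, SE 0.08). Of 87 matrix genes 12 rose (13.8%) and 3 fell, with a median of −0.06. Falls numbered 1 without KO replicates 1 or 8 and 5 without KO replicate 4. With extraction day as covariate 6 rose and 0 fell, at a median of 0.23. *Acan*, aggrecan of perineuronal nets, rose from a median of 2.78 to 6.60 CPM (0.92, SE 0.12), and *Col11a1* from 4.81 to 9.36 CPM (0.91, SE 0.13).

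Nuclear genes of mitochondrial respiration fell more often than they rose. Of 75 tested, 19 fell (25.3%, against 8.79% of all genes) and 2 rose, with a median of −0.08. *Atp5a1*, the alpha subunit of ATP synthase, had 930 to 966 CPM in WT (median 945) and 783 to 859 CPM in KO (median 817), a log2 fold change of −0.16 (SE 0.03, adjusted p = 4.98e-05) without overlap between groups. *Ndufa8* (0.13, SE 0.03) and *Ndufv3* (0.16, SE 0.03) rose. Without WT replicate 2 *Ndufa8* did not pass (0.11, adjusted p = 0.0665). Extraction day in the fit left 2 falls, and within 27 May 43 of 75 were higher in the KO library. None of the 12 protein genes encoded in mitochondria passed, at a median of −0.04. Their median was 0.40 with extraction day in the fit, where 1 rose. Within 27 May it was 0.68, and all 12 were higher in the KO library (series Z, against series V in WT). Leaving out WT replicate 2 gave 2 falls. Of 70 heat shock and DnaJ genes 10 fell (14.3%) and 3 rose, but 4 fell without WT replicate 2, and 1 fell and 1 rose with extraction day as covariate. Of 83 cytosolic ribosomal protein genes 1 fell, and of 38 proteasome genes 3 fell and 1 rose, none of them with extraction day as covariate. The 20 immediate-early genes had 1 fall and 0 rises, at a median of −0.08, and 0 calls with extraction day as covariate. Their summed CPM was 1144 to 1969 in WT and 596 to 1908 in KO libraries, and without covariates the median was −0.51. Within 27 May all 20 were lower in the KO library (series Z, against series V in WT), at a median of −1.35.

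Of 45 homeobox and developmental transcription factors tested 2 rose (4.44%, against 9.06% of all genes), *Onecut2* and *Dlx5* (0.22, SE 0.05), the latter not without WT replicate 2 (0.16, adjusted p = 0.134), and 127 of 172 in the table were too low to test. The fit with extraction day called 1 of the 45 higher. Zinc finger genes named *Zfp* rose in 46 of 348 (13.2%) and fell in 19 (5.46%, against 8.79% of all genes). Without WT replicate 2 there were 28 rises and 12 falls, and with extraction day as covariate 11 rises and 3 falls. *Zfp831* fell by 0.31 (SE 0.04). Germline genes rose in 2 and fell in 3 of 12, or 2 and 0 with extraction day as covariate. *Stag3* rose, as did *Tex15*, a gene of male meiosis, from a median of 1.45 to 2.74 CPM (1.07, SE 0.16), and *Sycp2* of the synaptonemal complex (−0.64, SE 0.15) and *Dazl* (−0.36, SE 0.07) fell. Antigen presentation and interferon genes rose in 4 of 29 (13.8%) and fell in 0, at a median of 0.17, among them *B2m*, the light chain of MHC class I (0.36, SE 0.06), and *H2-D1* (0.37, SE 0.08). Rises numbered 2 with extraction day as covariate, and 2 without KO replicates 2 or 8 or WT replicates 5, 6 or 9. Cholesterol synthesis genes rose in 3 of 22 (13.6%), but in 1 without KO replicate 8 or WT replicates 2, 7 or 8, and in 0 with extraction day as covariate. *Srebf2*, their transcriptional activator, fell by 0.25 (SE 0.04) from a median of 238 to 207 CPM without overlap. Among 20 tested cell-cycle inhibitors and p53 targets 3 rose (15.0%) and 0 fell, with 0 rises without WT replicate 2, 1 without KO replicate 8 and 1 with extraction day as covariate. Among 28 neurotrophic genes 2 rose and 2 fell (7.14% each), none of them with extraction day as covariate.

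The chromosomal neighbourhood of *Ppp1r1b*, whose regulatory fragment is part of the Cre transgene, was examined apart. Of 12 tested genes starting within 200 kb of *Ppp1r1b* on chromosome 11, 5 rose and 0 fell, against 9.06% and 8.79% of all genes. *Pnmt* (98386450 to 98388181), which makes adrenaline from noradrenaline, had 0.637 to 0.938 CPM in WT (median 0.744) and 4.28 to 8.16 CPM in KO (median 6.60), a log2 fold change of 3.03 (SE 0.20, adjusted p = 7.16e-12). *Erbb2*, a receptor tyrosine kinase, rose by 0.77 (SE 0.11), *Tcap* of muscle by 1.72 (SE 0.52), *Grb7* by 0.33 (SE 0.10) and *Mien1* by 0.26 (SE 0.04). *Tcap* had few reads, 0.0559 to 0.335 CPM in WT and 0.223 to 1.02 CPM in KO, with overlap. Its call was lost in males alone and with a replicate block. *Grb7* passed in 14 of 18 alternatives, not with extraction day in the fit, nor without KO replicates 1 or 8 or WT replicates 2 or 7. Genes between them such as *Stard3* (−0.03, SE 0.05) and *Pgap3* (−0.02, SE 0.07) did not pass. *Ppp1r1b* took 0.154% ± 0.010 (SD, n = 8) of counts in WT and 0.184% ± 0.014 (SD, n = 9) in KO striata (exact two-sided permutation test, p = 0.000658), and reads of the transgene cannot be told apart from those of the gene. The rise of *Ppp1r1b* in the fit (0.24, SE 0.06) was lost with extraction day as covariate and without WT replicate 2 (0.20, adjusted p = 0.0644).

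Genes were also chosen in mice outside this comparison. In 18 libraries from mice heterozygous for the *Htt*Q111 knock-in allele, fitted alone with sex as covariate, 1595 of 17169 genes (9.29%) passed for *Hdac2* KO against WT. The 787 of them that were higher and tested here had a median log2 difference from the WT mean of 0.330 to 0.405 in each *Htt*+/+ KO library and −0.050 to 0.036 in each WT library. For the 799 lower genes the medians were −0.247 to −0.170 in KO and −0.031 to 0.035 in WT libraries. KO and WT libraries did not overlap in either set. Both sets of mice were, however, extracted on the same days, and in both extraction day nearly followed *Hdac2* genotype. The fit that chose these genes had no covariate for day, so their choice is not independent of day. Within *Htt*+/+ mice, 1326 genes were called higher without the libraries of 27 May, and 85.1% of these were higher in the KO library of 27 May than in the mean of its 3 WT libraries. Of 1122 called lower, 87.8% were lower, whereas 50.5% of all tested genes were higher. The KO library of 27 May is of ID series Z and its 3 WT libraries are of series V, so series was not held fixed.

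**Figure D5:**
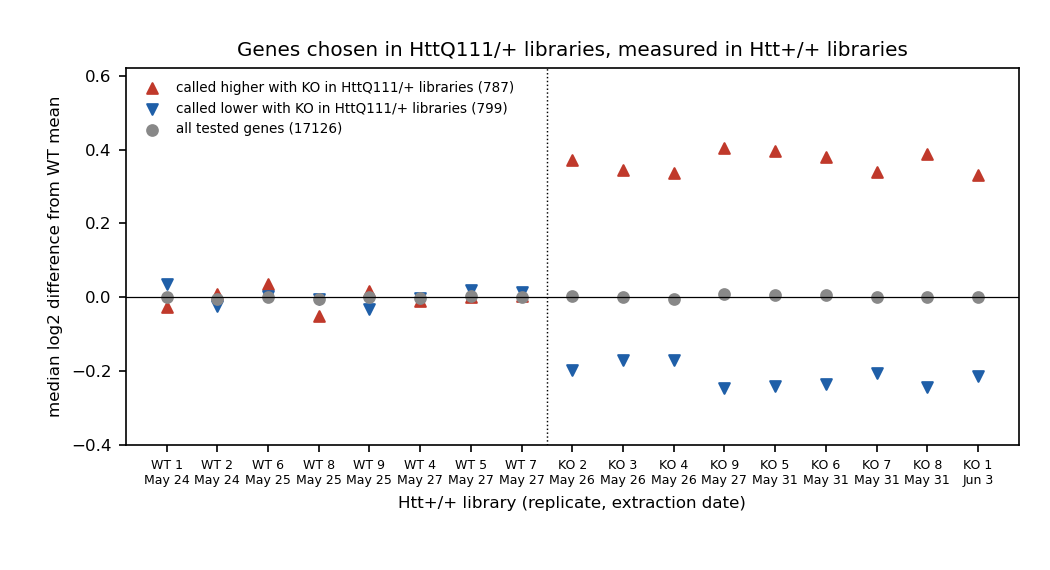
Median log2 difference from the *Htt*+/+ *Hdac2* WT mean in each of the 17 *Htt*+/+ libraries, for genes called higher (787) or lower (799) with *Hdac2* KO in *Htt*Q111/+ mice alone and for all tested genes. KO libraries lie at 0.330 to 0.405 and −0.247 to −0.170 for these sets, and libraries of both groups near 0 for all genes.

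Between *Htt* backgrounds, the effect of *Hdac2* KO itself was compared in 1 fit of 17346 genes. In that fit 1 gene passed for the difference (0.00577%), and 976 (5.63%) had an unadjusted p under 0.05. *Fibcd1*, a chitin-binding membrane protein, had 16.6 to 26.0 CPM in *Htt*+/+ WT (median 18.5) and 9.76 to 14.3 CPM in *Htt*+/+ KO libraries (median 11.6). Its log2 fold change was −0.98 (SE 0.06) in *Htt*+/+ and −0.54 in *Htt*Q111/+ mice, a difference of 0.43 (SE 0.07, adjusted p = 0.0152). Under DESeq2's Wald test 3 genes passed, *Fibcd1*, *Syp* (−0.19) and *Dsg2* (−0.90). With a minimum of 20 counts, with extraction day, without covariates and with a replicate block, 0 passed in edgeR.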

How the data were processed

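Striatal poly(A) RNA was sequenced by the authors from stranded paired-end libraries, aligned to GRCm38 with GSNAP and counted with bedtools over whole Ensembl 75 gene intervals, keeping unique alignments. The values used are these deposited raw counts. Intronic reads are included, overlapping genes can share reads, use of strand is not stated, and read mates may be counted separately. Excluded from the 39109 entries were 92 ERCC spike-ins, 6152 genes of at most 250 nt and both mitochondrial rRNA genes. Before deposit, the authors excluded 1 further *Htt*+/+ *Hdac2* WT male for DNA contamination.

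Genes that reached 6 counts in all libraries of either group were tested in edgeR 4.0.16 (R 4.3.3): TMM scaling, all 35 libraries, 4 genotype groups, 9 surrogate variables from sva 3.50.0, quasi-likelihood F test, Benjamini-Hochberg adjustment over all tested genes, threshold 0.05. All adjusted p values come from this test unless another is named. CPM values are TMM-scaled without removal of surrogate variables. Libraries are 1 per mouse. Group shares were compared by exact permutation. The procedure was also run on simulated counts, drawn without effects of sex, extraction day or ID series. That run could not test how such effects bear on the calls.

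The comparison, the gene lists (48) and the naming rule were chosen with earlier results of these data known. The rule covers all *Hdac* genes, the 12 largest rises and 12 largest falls at an average log2 CPM of at least 1, the 6 largest of each at 6 or more, up to 2 per list and direction, genes within 200 kb of *Ppp1r1b* or *Hdac2*, and genes called between *Htt* backgrounds, leaving out gene model names. *Chrna5*, *Chrna3*, *Syp*, *Gria1*, *Gria2*, *Gria3*, *Grin1*, *Grin2b*, *Camk2a*, *Acan*, *Col11a1*, *Pcdhb1*, *Pcdhb16*, *Pcdhb22*, *Atp5a1* and *Rarb* were named after their values were seen, as were the cell type markers without a call. Alternatives covered covariates, libraries, scaling, test (DESeq2 1.42.0, limma 3.58.1), filters and a replicate block. Fits with 1 library left out kept the surrogate variables of the main fit. The fit to *Htt*Q111/+ libraries alone was added after seeing the data. A few genes are left out of the text.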

Additional observations from a re-analysis of the deposited data

Results flagged for a closer look

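In 34 of 426 sets of 8 or 9 libraries examined gene by gene, the highest or lowest library stood apart from the rest by Dixon's criterion at the 95% level. Chance alone gives about 1 in 20. In WT replicate 9 these were *Adcy1* (181 CPM), *Chat* (44.5), *Ebp* (17.4), *Gria1* (513), *Mien1* (61.95), *Ndufa8* (78.5), *Ndufv3* (61.3), *Psmc5* (157.5), *Sycp2* (8.87) and *Tspear* (6.04). WT replicate 9 is the 1 WT library of ID series Z, against 5 in KO, so replicate and series cannot be told apart there. In WT replicate 8 they were *Adcy9* (72.5 CPM), *Cntn6* (16.7), *Nts* (23.8) and *Rarb* (221). *Cacng1* (2.41 CPM) stood apart in WT replicate 5, *Tcfl5* (1.33) in WT replicate 2 and *Ttr* (171) in WT replicate 1.

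Among KO mice, replicate 1 stood apart for *Chd3* (642 CPM), *Crb1* (3.51), *H2-Q2* (4.10), *Hdac4* (10.4), *Nexn* (80.6), *Nos1* (29.9) and *Slc1a2* (374). Replicate 4 did so for *Lypd1* (212 CPM), *Nlrp10* (9.38) and *Zfp831* (33.9), and replicate 8 for *Dnajc14* (55.9), *Psmb10* (9.25) and *Stag3* (5.39). Values of *Cnr1* (678 CPM) in replicate 5, *Tex15* (3.599) in replicate 6, and *Pde4c* (3.58) and *Ptprv* (36.9) in replicate 9 also stood apart.

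The effect of *Hdac2* KO on *Fibcd1* differed between *Htt* backgrounds, with a log2 fold change 0.427 higher (less negative) in *Htt*Q111/+ than in *Htt*+/+ mice (adjusted p = 0.0152 from edgeR's interaction test).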

How the results depend on the processing

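Against 3056 genes past the threshold, 822 passed with extraction day in place of surrogate variables (494 up, 328 down), 843 with a replicate block (468 up, 375 down), 1259 in females alone, 1970 in males alone and 5094 with surrogate variables estimated in the 17 *Htt*+/+ libraries. The other alternatives gave 2448 to 4267. Of the 3056 genes, 661 were called in the same direction with extraction day and 2256 without surrogate variables. Under DESeq2's Wald test 3039 were. Leaving out 1 library gave 2078 (without WT replicate 2) to 3034. These fits kept the surrogate variables estimated with that library included, so its part in those variables was not tested. Same-numbered samples share only a number: correlations of their deviations ran from −0.18 to 0.40, so the replicate block is no pairing by litter or day. For the difference between *Htt* backgrounds, DESeq2's Wald test gave 3 genes, and 0 passed in edgeR with at least 20 counts, with extraction day, without surrogate variables and with the block.

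Differences in share between groups (KO minus WT, percentage points), with 1 library left out, ran from 0.555 to 1.25 for mitochondrial genes, from 0.0142 to 0.0792 for spike-ins and from 0.0273 to 0.0328 for *Ppp1r1b*. Without WT replicate 9, the 1 WT library of ID series Z against 5 in KO, the mitochondrial difference was 1.25 (exact permutation test without regard to ID series, p = 0.0465). Signs turned for *Ebp* in females alone (−0.0333) and, with extraction day in the fit, for *Fgf13* (0.0201), *Pcgf2* (−0.00888), *Psmc5* (0.000921), *Slc1a2* (0.0613) and *Ttr* (0.22). The cause was not tested. Of 182 named genes past the threshold, 66 passed in all 18 alternatives and 147 with each of the 17 libraries left out, and WT replicate 2 ended the most calls (28). Genes under 6 counts in at least 1 library of both groups were not tested.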

Other observations

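Further gene lists were small, and calls with extraction day in the fit numbered 2 each for the axonal cytoskeleton and C-type lectins (1 up, 1 down), 2 for catecholamine genes, 1 for the choroid plexus list and 0 for the cortical list. Genes of neurofilaments and the axonal cytoskeleton rose in 4 and fell in 5 of 31 (2 falls without WT replicate 2, 3 without KO replicate 1 or WT replicate 7), including *Dpysl3*, a collapsin response mediator (0.45, SE 0.08), and *Tuba4a*, an alpha tubulin (−0.22, SE 0.05). Of 14 C-type lectin genes 1 rose, *Clec2l* (0.43, SE 0.06), and 1 fell, *Clec12a*. Catecholamine synthesis and transport genes rose in 2 of 7, *Pnmt* and *Maob* (0.20, SE 0.05), the latter not without WT replicate 2 (0.16, adjusted p = 0.0918 from edgeR). Choroid plexus and ependymal markers rose in 1 of 7, *Clic6* (0.39, SE 0.10), and fell in 1, *Ttr*. Of 11 cortical excitatory neuron markers 1 rose, *Cux2* (0.44, SE 0.12), whose call was lost with extraction day in the fit.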
